A study of Homo sapiens with 24 samples.

Results

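Chronic exposure to inorganic arsenic (iAs) was examined in control clones of HaCaT cells, an immortalised and non-malignant line of human keratinocytes, after 12 weeks. The comparison set 3 libraries of empty-vector clones kept in 100 nM iAs against 3 libraries of empty-vector clones kept in 0 nM iAs for the same time, 6 of the 24 libraries of the series. All 6 share the line, the vector transduction and the week, and none carries the hsa-miR-186 construct that other clones of the series overexpress. The labels describe 3 clonal lines per construct and independent biological triplicates, but give no link from replicate to clone, so p-values measure the spread between libraries. For single genes that spread was estimated within the 8 groups of all 24 libraries together, not from the 6 libraries alone. The question was which messages differ after 12 weeks of iAs when miR-186 is not added. All genes measured were described, and changes were set beside a trend between libraries with gene GC content, the percentage of G and C bases in a gene's longest annotated transcript.

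Inorganic arsenic is a human skin carcinogen that binds thiol groups of proteins. In keratinocytes it is known to act on the antioxidant programme of the transcription factor NRF2, on metallothioneins, on heat shock proteins and on mitochondria. GC content matters to such a comparison because the yield of cDNA synthesis, amplification and sequencing can depend on the base composition of a fragment. Libraries can then differ along GC content over many genes together.

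The sequences below show what that range looks like in coding RNA. LAMA5 was chosen as a GC-rich gene higher with iAs, MRPL50 as a GC-poor gene lower with iAs, and CCNL2 as a gene of middle GC content that passed with and without the correction. Each is 120 bases from the middle of the coding sequence of the longest coding transcript in GENCODE release 29 (GRCh38), 5′ to 3′ in the direction of the gene, with G and C in capitals. LAMA5 lies on the minus strand of chromosome 20 (62307955 to 62367312), CCNL2 on the minus strand of chromosome 1 (1385711 to 1399328) and MRPL50 on the minus strand of chromosome 9 (101387633 to 101398614). G and C make up 63.3% of the stretch of LAMA5, 54.2% of that of CCNL2 and 40% of that of MRPL50.
LAMA5: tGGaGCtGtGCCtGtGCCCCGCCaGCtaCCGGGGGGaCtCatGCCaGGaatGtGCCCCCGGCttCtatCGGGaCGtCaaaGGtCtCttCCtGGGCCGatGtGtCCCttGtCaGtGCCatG
CCNL2: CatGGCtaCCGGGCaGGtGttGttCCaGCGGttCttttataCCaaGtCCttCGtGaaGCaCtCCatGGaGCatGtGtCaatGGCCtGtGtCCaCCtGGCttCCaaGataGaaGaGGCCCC
MRPL50: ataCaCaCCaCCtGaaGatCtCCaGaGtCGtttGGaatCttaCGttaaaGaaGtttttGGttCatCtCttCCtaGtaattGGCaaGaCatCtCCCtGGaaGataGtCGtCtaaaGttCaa

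The 6 libraries differed along GC content in the direction of the dose. In each library, every gene's log2(FPKM + 0.5) was set against its mean over the 24 libraries, and the slope of these deviations was taken per 10 points of GC content. The slopes were 0.179, 0.226 and 0.427 in the iAs libraries, against −0.127, −0.204 and −0.0775 in the untreated libraries. The groups did not overlap, and replicate 3 of the iAs group was the steepest. The difference was 0.414, with p = 0.1 in a two-sided exact permutation test of 3 against 3 libraries, where 0.1 is the smallest p possible. The same difference was 0.0877 (exact permutation p = 0.7) in vector clones at week 29, 0.165 (exact permutation p = 0.2) in miR-186 clones at week 12 and 0.126 (exact permutation p = 0.4) in miR-186 clones at week 29. Dose and GC slope go together in these 6 libraries and cannot be told apart.

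**Figure D1:**
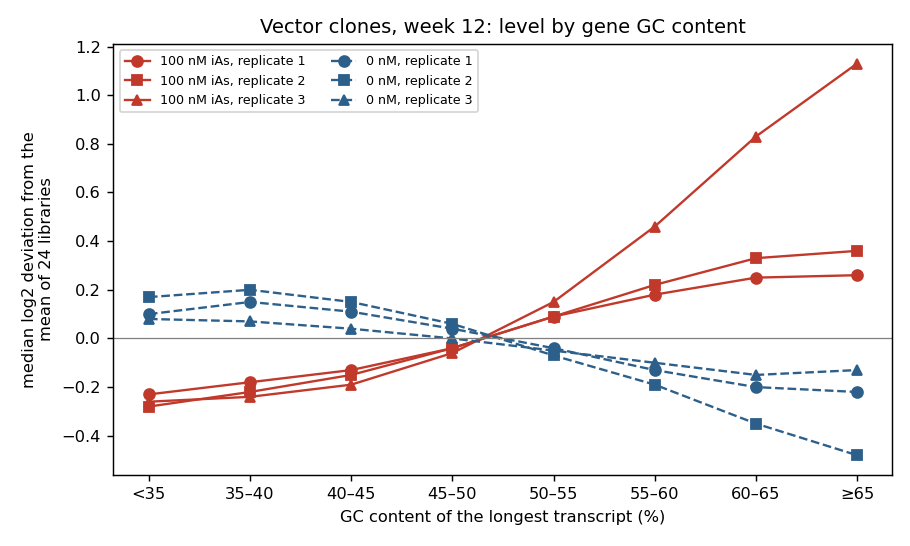
Median log2 deviation from the mean of 24 libraries (vertical axis) by GC content of the longest transcript in percent (horizontal axis), 1 line per library, with iAs libraries in red and untreated libraries in blue. The lines cross near the middle of the range, and at 65% GC and above the 3 iAs libraries stand at 0.26, 0.36 and 1.13 while the untreated libraries stand at −0.22, −0.48 and −0.13.

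At the level of single genes, 93 of 14228 were higher with iAs (0.654%) and 104 were lower (0.731%), 197 in all (1.38%), in limma at a Benjamini-Hochberg adjusted p under 0.05. The smallest adjusted p was 0.0356, so all calls lay close to the threshold. None of the 197 calls had overlapping groups, while over all genes tested the iAs libraries lay wholly above in 2774 genes (19.5%) and wholly below in 2524 (17.7%). At an unadjusted p under 0.05, 2220 genes were higher (15.6%) and 1948 were lower (13.7%). The calls followed GC content. Median GC content was 59% among the genes that were higher, 40% among those that were lower and 47.9% among all genes tested. Below 40% GC, 0 genes were higher and 53 were lower, and at 50% GC or above 85 were higher and 0 were lower. When any 1 of the 6 libraries was left out, at most 1 gene was called higher and at most 1 lower. With the replicate number fitted as a block in the 2 groups, 1188 genes were called higher and 868 lower.

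A correction was then applied that subtracts, in each library, a smooth curve of the deviations over GC content. It could be applied to 14208 genes, and 7 were then higher (0.0493%) and 1 was lower (0.00704%) in limma at an adjusted p under 0.05. With only the 2 groups in the corrected fit 0 genes were called in either direction, with or without a replicate block. Without any 1 of the 6 libraries 0 to 5 were higher and 0 to 2 lower. Of the 197 genes, 6 were called in both fits and 191 only without the correction, and 2 genes were called only with it. The median size of the 197 changes was 0.84 log2 units without the correction and 0.48 with it, and their median standard error was 0.183 without it and 0.151 with it. With the correction, 71 of the 93 higher genes and 96 of the 104 lower genes had an unadjusted p under 0.05, against 6.49% of all genes on the higher side and 7.19% on the lower side. The correction uses the same libraries as the calls, so these shares are a description of the 197 genes and no separate test.

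**Figure D2:**
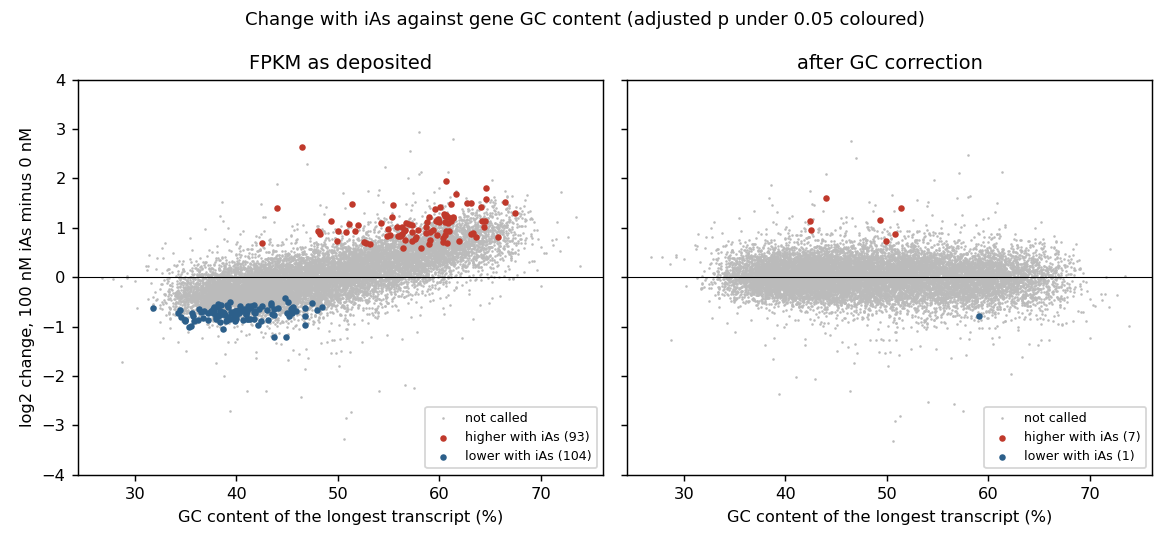
Log2 change with iAs, 100 nM minus 0 nM (vertical axis), against GC content of the longest transcript in percent (horizontal axis) for each gene, with FPKM as deposited on the left and after the GC correction on the right. On the left the 93 higher genes (red) lie mostly at high GC content and the 104 lower genes (blue) at low GC content. On the right 7 genes are higher and 1 is lower.

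NEAT1, the long nuclear RNA that forms the scaffold of paraspeckles, had the highest FPKM of the named genes that rose in both fits. It is a single-exon gene on the plus strand of chromosome 11 (65422774 to 65445540, GRCh38) with a GC content of 44.05%, on the side of the range where most genes were lower. Its levels were 220, 174 and 117 FPKM in the iAs libraries, against 51.9, 64.8 and 70.5 FPKM in the untreated libraries. All 3 iAs libraries lay above all untreated ones, and replicate 3 with iAs was the lowest of the treated. NEAT1 rose by 1.40 ± 0.25 (SE) log2 units, 2.65-fold (limma adjusted p = 0.0411), and by 1.61 ± 0.24 with the GC correction (limma adjusted p = 0.00968). It was called in 2 of the 6 corrected fits that left out 1 library, and its adjusted p in limma was 0.0506 where transcript length was corrected together with GC content.

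PIGL encodes an enzyme that removes an acetyl group in the synthesis of glycosylphosphatidylinositol anchors, and it lies on the plus strand of chromosome 17 (16217191 to 16351797). It had 17.9, 15.2 and 18.3 FPKM in the iAs libraries, against 10.6, 10.1 and 10.2 FPKM in the untreated libraries. The untreated libraries were almost level and the iAs libraries all stood above them. The GC content used for PIGL was 42.55%, that of its longest annotated transcript, which has 2160 bases and 2 exons. Whether that transcript is the one expressed was not tested. PIGL rose by 0.70 ± 0.12 log2 units (limma adjusted p = 0.0411), and by 0.95 ± 0.14 with the GC correction (limma adjusted p = 0.00719). It passed in 3 of the 6 corrected fits without 1 library, and with transcript length added its adjusted p in limma was 0.00951.

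CCNL2 encodes cyclin L2, a cyclin of nuclear speckles that takes part in pre-mRNA splicing. It had 96.9, 112 and 87.5 FPKM in the iAs libraries, against 45.5, 57.5 and 53.2 FPKM in the untreated libraries. The groups were well apart, and the coding stretch printed for it lies between the others in GC content. That stretch is from a coding transcript of 2815 bases with 54.8% GC. The correction used 50.79%, the GC content of the longest annotated transcript of 4452 bases. CCNL2 rose by 0.92 ± 0.16 log2 units (limma adjusted p = 0.0411), and by 0.87 ± 0.16 with the GC correction (limma adjusted p = 0.0396).

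TLCD2, which encodes a membrane protein with a TLC domain, is on the minus strand of chromosome 17 (1702790 to 1710438). It had 8.20, 6.20 and 7.41 FPKM in the iAs libraries, against 4.82, 3.67 and 3.93 FPKM in the untreated libraries. The groups did not overlap, and the change was 0.74 ± 0.15 log2 units without the correction (limma adjusted p = 0.0411) and 0.74 ± 0.13 with it (limma adjusted p = 0.0396). CCNL2 passed in 1 and TLCD2 in 0 of the 6 corrected fits without 1 library, and both had an adjusted p of 0.064 in limma when transcript length was added.

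EMC6, a subunit of the complex that inserts membrane proteins into the endoplasmic reticulum, was the single gene lower after the correction. It lies on the plus strand of chromosome 17 (3668815 to 3669668) and has a GC content of 59.06%, where most genes were higher. Its levels were 16.7, 20.4 and 29.0 FPKM in the iAs libraries, against 24.4, 26.5 and 25.2 FPKM in the untreated libraries. The groups overlap as deposited, since replicate 3 with iAs, the library with the steepest GC slope, was the highest of all 6. The change was −0.23 ± 0.18 log2 units without the correction (limma adjusted p = 0.384) and −0.78 ± 0.14 with it (limma adjusted p = 0.0396). It passed in 1 of the 6 corrected fits without 1 library, and its adjusted p in limma was 0.064 with transcript length added. The other 3 genes higher after the correction were a readthrough of related copies and a pair of transcripts known by clone names, and they are not described.

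The greatest rises without the correction were mostly in GC-rich genes. LAMA5, the laminin alpha-5 chain of basement membranes, had 36.7, 35 and 39.2 FPKM in the iAs libraries, against 16, 8.18 and 15.2 FPKM in the untreated libraries. The iAs libraries were close together and far above the untreated ones. LAMA5 rose by 1.52 ± 0.32 log2 units (limma adjusted p = 0.0422), and with the GC correction the change was 0.61 ± 0.20 (limma adjusted p = 0.197). LENG8, a gene with a role in mRNA processing, had 8.20, 9.22 and 12.7 FPKM in the iAs libraries, against 2.33, 2.57 and 3.30 FPKM in the untreated libraries, with no overlap. It rose by 1.69 ± 0.33 (limma adjusted p = 0.0411), and with the GC correction its change was 1.01 ± 0.21 (limma adjusted p = 0.124).

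Further genes among the greatest rises had smaller changes once GC content was corrected. TJP3, a scaffold of tight junctions, had 11, 13.6 and 17.5 FPKM with iAs, against 5.54, 4.38 and 3.79 FPKM without. PER1, a repressor of the circadian clock, had 7.46, 7.30 and 12.3 FPKM with iAs, against 3.71, 1.82 and 3.11 FPKM without. In both genes replicate 3 with iAs was the highest library. TJP3 rose by 1.51 ± 0.31 and PER1 by 1.5 ± 0.34 log2 units, and each stood at 0.76 with the correction (limma adjusted p = 0.142 for each). SERPINF1, the antiangiogenic serpin PEDF, had 28.1, 23.1 and 21.6 FPKM with iAs, against 8.01, 14.3 and 5.24 FPKM without. Its change was 1.46 ± 0.29 without the correction and 1.13 ± 0.30 with it. MAPK8IP3, a scaffold of JNK signalling that binds kinesin, rose by 1.59 ± 0.35, and ANO9, a membrane protein of the anoctamin family, by 1.42 ± 0.34. At the corrected level MAPK8IP3 was 0.77 ± 0.22 and ANO9 0.62 ± 0.20, neither past the test. LCN12, a lipocalin, rose by 1.81 ± 0.39, with 1.37, 1.67 and 5.81 FPKM with iAs, against 0.550, 0.181 and 0.324 FPKM without, so that replicate 3 stood apart. With the correction LCN12 was at 0.99 ± 0.36 (limma adjusted p = 0.23).

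**Figure D3:**
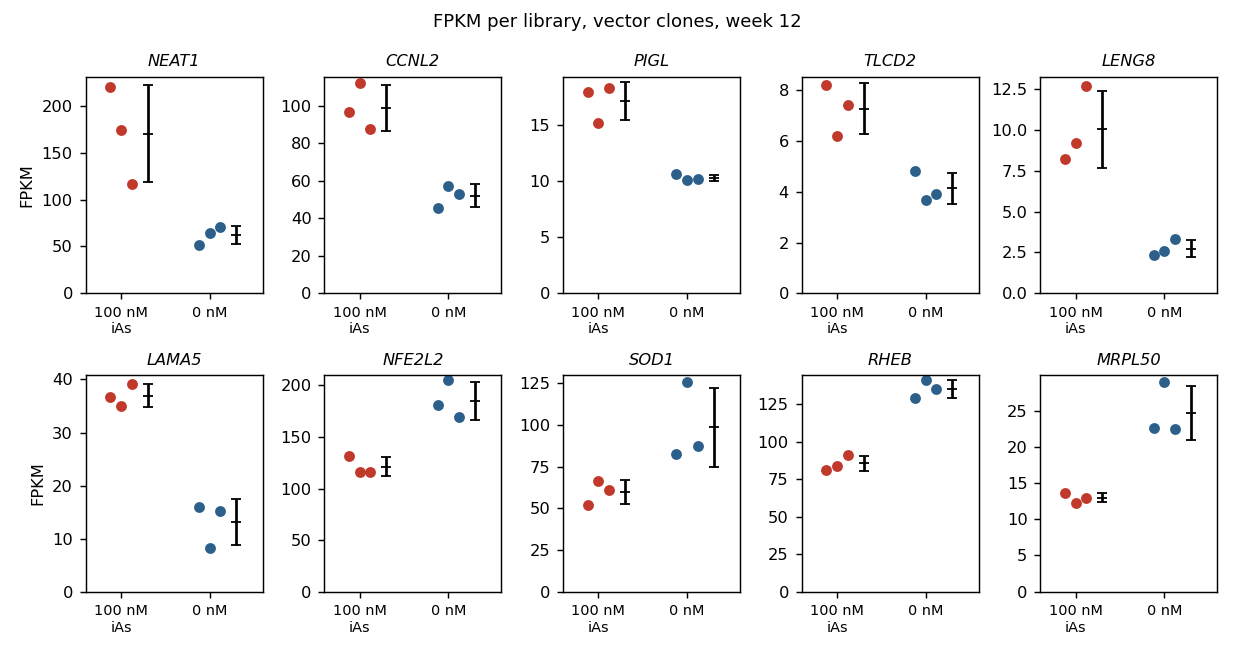
FPKM (vertical axis, from 0) of 10 genes in each iAs library (red, left) and each untreated library (blue, right), with the mean and SD of 3 libraries beside the points. In each of the 10 genes the groups do not overlap. All but SOD1 were called as deposited, and none of the 197 calls had overlapping groups, so the separation goes with the choice of genes. Over all genes tested, the iAs libraries lay wholly above in 19.5% and wholly below in 17.7%.

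Changes of the genes that fell also became smaller with the correction. MRPL50, a protein of the large mitochondrial ribosomal subunit, had 13.6, 12.3 and 13 FPKM in the iAs libraries, against 22.6, 29.0 and 22.5 FPKM in the untreated libraries. The iAs libraries were level and the second untreated library was the highest. MRPL50 fell by 0.89 log2 units (SE 0.21, limma adjusted p = 0.0479), and with the correction the change was −0.50 ± 0.16 (limma adjusted p = 0.196). RHEB, the small GTPase that activates mTORC1, had 81.3, 83.6 and 91.4 FPKM with iAs, against 129, 141 and 135 FPKM without. The groups were far apart for their spread, and RHEB fell by 0.66 log2 units (SE 0.15, limma adjusted p = 0.0422). With the correction it stood at −0.59 ± 0.13 (limma adjusted p = 0.142), a change of nearly the same size, and its GC content is 48.0%, close to the median of all genes.

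VPS35, a subunit of the retromer that recycles cargo from endosomes, had 86.3, 82.4 and 97.7 FPKM with iAs, against 162, 177 and 138 FPKM without. Its change was −0.84 ± 0.16 without the correction and −0.56 ± 0.13 with it. The groups did not overlap, and the iAs libraries were all lower. BPGM, which makes 2,3-bisphosphoglycerate, fell by 1.20 (SE 0.30), with 102 FPKM in the second untreated library and 46.4 and 46.2 FPKM in the others. Its corrected change was −0.98 ± 0.30 (limma adjusted p = 0.185). CD59, a surface protein that blocks complement and is held by a glycosylphosphatidylinositol anchor, had 188, 180 and 174 FPKM with iAs, against 270, 322 and 248 FPKM without. It fell by 0.63 log2 units (SE 0.14), and its corrected change was −0.46 ± 0.12.

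Single NRF2 antioxidant genes passed the test as deposited, in both directions, and none passed with the correction. Of 29 NRF2 antioxidant genes, 1 rose and 1 fell, where 0.654% of all genes tested rose and 0.731% fell. The list had a median of 0.36 against 0 for all genes tested, and of 0.29 against 0.01 with the correction. Without 1 library the median ran from 0.13 to 0.47 as deposited and from 0.06 to 0.31 corrected. ABCC3, an exporter of conjugated compounds, had 27.1, 28.2 and 33.7 FPKM with iAs, against 14.1, 11.9 and 18.0 FPKM without, and rose by 1.01 ± 0.19. NFE2L2, which encodes NRF2 itself, had 132, 116 and 116 FPKM with iAs, against 181, 205 and 169 FPKM without. The iAs libraries all lay below, and NFE2L2 fell by 0.61 log2 units (SE 0.14, limma adjusted p = 0.0479). With the correction ABCC3 stood at 0.66 ± 0.16 and NFE2L2 at −0.45 ± 0.11, both with a limma adjusted p of 0.142.

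Further stress genes did not pass the test. GCLC, the catalytic subunit of glutathione synthesis, had 68.4, 105 and 200 FPKM with iAs, against 88.3, 83.5 and 86.2 FPKM without. The third iAs library was far above the other 5 libraries, and GCLC did not pass. MT2A, a metallothionein that binds metals, had 96.0, 119 and 307 FPKM with iAs, against 41.9, 45.5 and 56.1 FPKM without. Its groups did not overlap, but the change of 1.67 ± 0.56 missed the threshold (limma adjusted p = 0.0765), as did the corrected change of 1.44 ± 0.51 (limma adjusted p = 0.227), and 0 of the 8 metallothionein and metal transport genes tested passed. SOD1, the cytosolic superoxide dismutase, had 52.1, 66.3 and 61.0 FPKM with iAs, against 82.4, 126 and 87.4 FPKM without, a change of −0.70 ± 0.18 (limma adjusted p = 0.0524) and of −0.91 ± 0.20 with the correction (limma adjusted p = 0.142). Of 13 genes of arsenic methylation and transport, 0 passed in either direction.

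Nuclear-retained transcripts and splicing regulators had list medians above that of all genes once GC content was corrected. Of 13 nuclear-retained transcripts tested, 3 rose and 1 fell, where 0.654% of all genes rose and 0.731% fell. With the correction 2 rose and 0 fell, where 0.0493% of all genes rose and 0.00704% fell. This list and the others were chosen with earlier results of these data known, so counts within lists are a description and no test. The rises were NEAT1, CCNL2 and LENG8, and the fall was the splicing kinase CLK1, with 43.2, 38.3 and 30.2 FPKM with iAs against 61.8, 62.2 and 59.9 FPKM without. CLK1 fell by 0.73 log2 units (SE 0.17), and its corrected change was −0.34 ± 0.15 (limma adjusted p = 0.321). The median of the list was 0.06 as deposited and 0.32 with the correction, against 0.01 for all genes corrected. Without 1 library it ran from −0.08 to 0.26 as deposited and from 0.21 to 0.49 corrected. MALAT1, an abundant RNA of nuclear speckles, had 80.7, 88.1 and 46.6 FPKM with iAs, against 34.7, 58.8 and 53.3 FPKM without, and did not pass (0.53 ± 0.29, and 0.84 ± 0.27 corrected). Of 28 SR proteins and splicing regulators, SRRM2 alone rose, by 0.85 ± 0.16, with 149, 130 and 125 FPKM with iAs against 82.7, 62.1 and 79.2 FPKM without. SRRM2 had a corrected change of 0.48 ± 0.15 (limma adjusted p = 0.187). The list median was 0.06 as deposited (−0.03 to 0.21 without 1 library) and 0.30 corrected (0.20 to 0.32). At unadjusted p under 0.05, 3 were higher and 3 lower as deposited, against 15.6% higher and 13.7% lower of all genes. With the correction 10 were higher and 0 lower, against 6.49% and 7.19% of all genes.

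Genes of protein synthesis, folding and respiration encoded in the nucleus had medians below 0. Of 58 mitochondrial ribosomal proteins, 0 rose and 5 fell, namely MRPL33, MRPL42, MRPL50, MRPL47 and MRPS28, where 0.731% of all genes fell, and none of the 5 passed with the correction. The list median was −0.27 as deposited (−0.38 to −0.20 without 1 library) and −0.19 corrected (−0.31 to −0.11). Of 25 heat shock proteins and chaperones, 0 rose and 1 fell, the chaperonin subunit CCT2, with 93.5, 97.7 and 109 FPKM with iAs against 149, 178 and 154 FPKM without. That list had a median of −0.47 as deposited and −0.28 corrected (−0.33 to −0.20 without 1 library), and CCT2 was at −0.53 ± 0.14 corrected (limma adjusted p = 0.142). Of 54 cytosolic ribosomal proteins, 31 proteasome subunits and 50 nuclear genes of the respiratory chain, none passed, and their medians were −0.35, −0.27 and −0.31 as deposited and −0.26, −0.21 and −0.24 corrected. Without 1 library, the corrected medians ran from −0.32 to −0.14, from −0.37 to −0.15 and from −0.35 to −0.14 in the same order of lists. At unadjusted p under 0.05, 24 cytosolic ribosomal genes were lower and 1 was higher as deposited, against 13.7% lower and 15.6% higher of all genes. Of genes with a mean over 50 FPKM, 30.3% were lower. With the correction 17 were lower and 1 was higher, against 7.19% and 6.49% of all genes, and 17.8% lower above 50 FPKM. Ribosomal protein genes have near-identical processed copies, so their values are uncertain.

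Messages of the mitochondrial genome stood on the other side. Of 13 tested, 0 passed, and the median was 0.26 as deposited and 0.45 corrected. At unadjusted p under 0.05, 1 was higher and 0 were lower as deposited, against 15.6% higher and 13.7% lower of all genes. With the correction 7 were higher and 0 lower, against 6.49% and 7.19% of all genes. Without 1 library the median ran from 0.14 to 0.42 as deposited and from 0.35 to 0.56 corrected. They made up 19.9%, 17.5% and 12.7% of summed FPKM in the iAs libraries, against 12.9%, 12.9% and 13.3% in the untreated libraries. The shares were higher in the first and second iAs libraries and lowest in the third. MT-ND1, a subunit of respiratory complex I, had 3370, 3240 and 2080 FPKM with iAs, against 1720, 1950 and 2110 FPKM without. FPKM are shares of a library, so a greater share of these messages goes with smaller shares of the rest, and the part this plays in the other results was not tested. Nuclear copies of mitochondrial DNA also make these values uncertain.

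**Figure D4:**
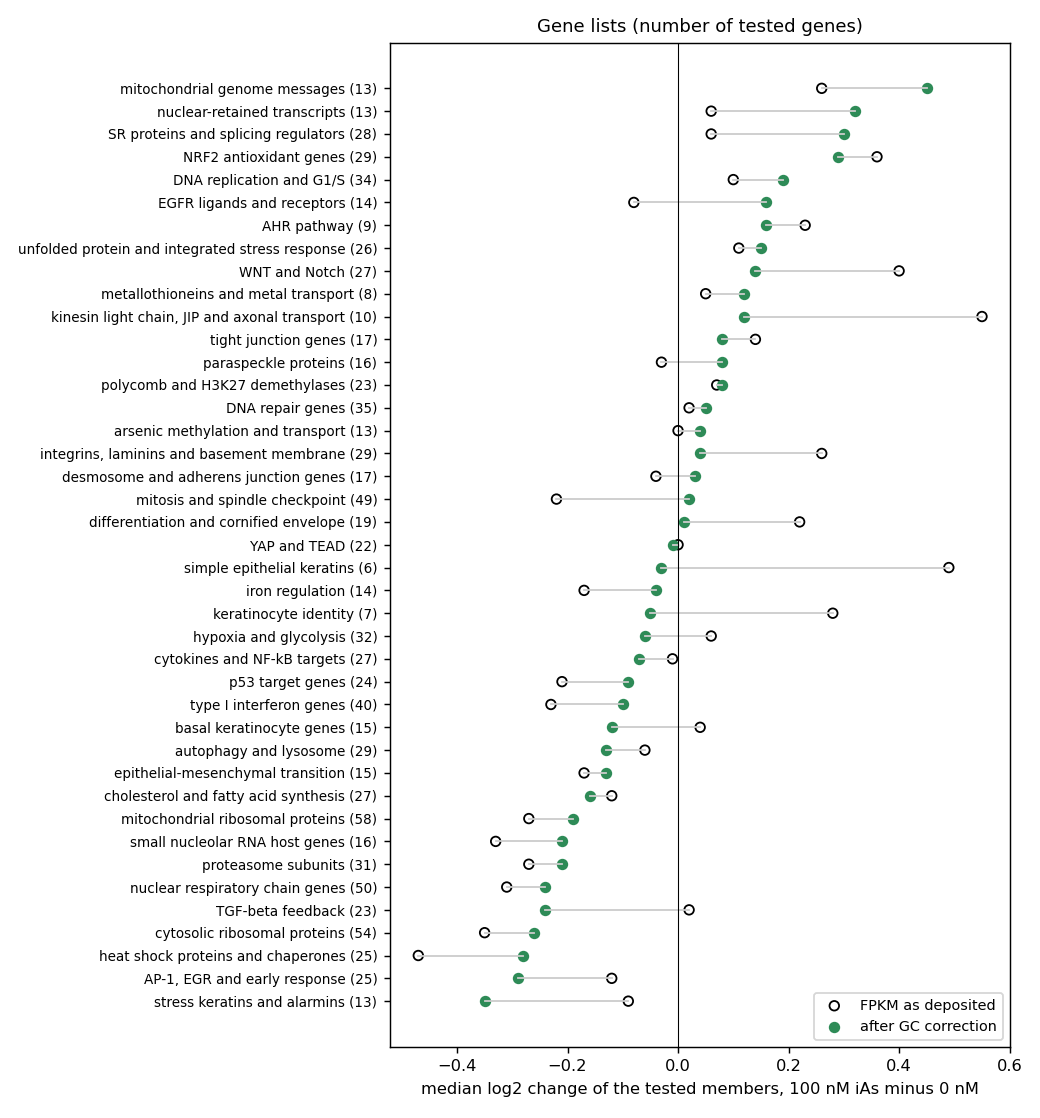
Median log2 change with iAs, 100 nM minus 0 nM (horizontal axis), of the tested members of each gene list (rows, with the number of genes), as deposited (open circles) and after the GC correction (filled circles). Mitochondrial genome messages, nuclear-retained transcripts and splicing regulators have the highest corrected medians, at 0.45, 0.32 and 0.30.

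Keratinocyte and adhesion genes were mostly without a call. Of 7 keratinocyte identity genes tested, 0 passed. KRT5, the basal keratin, had 1040, 1510 and 1870 FPKM with iAs, against 1030, 1120 and 1410 FPKM without, and TP63, the regulator of the lineage, had 73.0, 67.2 and 58.1 FPKM with iAs, against 61.5, 68.4 and 83.6 FPKM without. The groups overlap for both genes. Markers of other cells were low. The 8 fibroblast genes summed to 8.61, 8.31 and 4.25 FPKM with iAs and to 5.01, 26.3 and 3.31 FPKM without, so the second untreated library was the highest. COL1A2 was listed at 0 in all 6 libraries. The 3 that were tested, COL1A1, DCN and LUM, changed by 0.83, −0.53 and −0.78 log2 units, and 0 passed. Without 1 library the change of DCN ran from −1.36 to 0.69. The 6 melanocyte genes summed to 5.48 to 11.2 FPKM with iAs and to 4.64 to 11.2 FPKM without, and the 7 blood and endothelial genes to 5.1 to 16.7 FPKM with iAs and to 9.08 to 11.5 FPKM without, with TYR, HBB and PECAM1 listed at 0 in all 6. Of these lists PMEL, MITF and CDH5 were high enough to be tested, and 0 passed. Of 29 integrin, laminin and basement membrane genes, LAMA5 rose and ITGB1 fell, where 0.654% of all genes tested rose and 0.731% fell. ITGB1, the beta-1 integrin, had 149, 147 and 140 FPKM with iAs, against 238, 226 and 238 FPKM without, and its change was −0.69 ± 0.14, or −0.37 ± 0.11 with the correction.

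After the correction the changes still varied with transcript length and level. Genes whose longest transcript has 6000 bases or more had a corrected median of 0.13, with 11.7% higher and 2.05% lower at unadjusted p under 0.05, and genes of 1000 to 2000 bases had −0.11, with 4.19% higher and 14.8% lower. Genes with a mean above 50 FPKM had a corrected median of −0.12, and those under 2 FPKM had 0.08. Long noncoding genes had 0.11 and protein-coding genes 0. NEAT1 is long and noncoding, and EMC6, SOD1 and the ribosomal proteins are short, and the part of transcript length in their values was tested only by the fit that corrects it as well. That fit called 5 genes higher and 0 lower, 4 of them among the 8 called with GC content alone. Its list medians were −0.20 for cytosolic and −0.12 for mitochondrial ribosomal proteins. They were −0.17 for proteasome subunits, −0.17 for nuclear respiratory chain genes and −0.26 for heat shock proteins and chaperones. Mitochondrial genome messages had 0.58, nuclear-retained transcripts 0.26 and splicing regulators 0.25.

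The same dose in other clones and at week 29 gave values in libraries that are not shared with this comparison. At week 12 in miR-186 clones, 86 of the 93 rises and 101 of the 104 falls had the same sign, as had 10541 of all 14228 genes, and with the GC correction 73 rises and 93 falls did, against 9299 of 14208 genes. In vector clones at week 29, 75 rises, 79 falls and 9158 of all genes had the same sign without the correction, and 59 rises, 75 falls and 8637 of all genes with it. In miR-186 clones at week 29, 69 rises, 91 falls and 9211 of all genes had the same sign without the correction. With it, 38 of the 93 rises, 64 of the 104 falls and 7721 of all genes did, and the rises had a median of −0.06 there. Of the 7 genes higher after the correction, 6 were higher in miR-186 clones at week 12 and all 6 had an unadjusted p under 0.05 there. Over all genes, 1207 of 14208 had the same sign and an unadjusted p under 0.05 in that corrected comparison. The 7 include the readthrough and clone-named genes. NEAT1 had a corrected change of 0.65 ± 0.24 in miR-186 clones at week 12, 0.04 ± 0.24 in vector clones at week 29 and 0.07 ± 0.24 in miR-186 clones at week 29. CCNL2 had 0.65 ± 0.16 in miR-186 clones at week 12, 0 ± 0.16 in vector clones at week 29 and 0.16 ± 0.16 in miR-186 clones at week 29. LENG8 stood between −0.13 and 0.01 in these comparisons. Tests of the difference between the effects called 0 genes, without and with the GC correction. Between weeks 12 and 29 in vector clones, the smallest adjusted p in limma was 0.215 without the correction and 0.114 with it. There 1058 genes had an unadjusted p under 0.05 without it and 622 with it. Between vector and miR-186 clones at week 12, the smallest adjusted p in limma was 0.977 without it and 0.999 with it. In that test 421 genes had an unadjusted p under 0.05 without it and 416 with it.

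**Figure D5:**
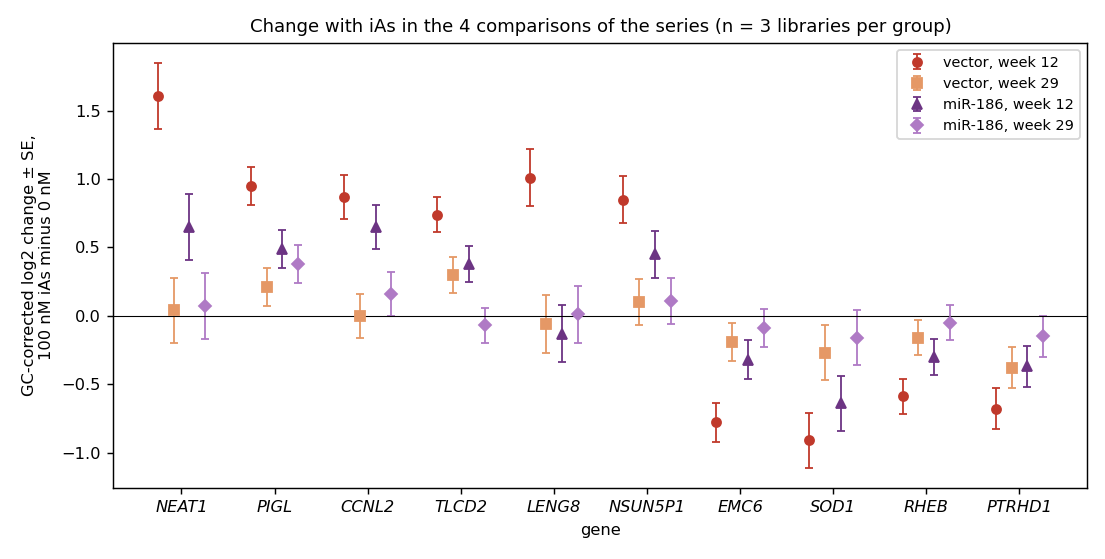
GC-corrected log2 change with iAs ± SE (vertical axis) of 10 genes (horizontal axis) in vector clones at weeks 12 and 29 and in miR-186 clones at weeks 12 and 29, 3 libraries per group. NEAT1 stands at 1.61 in vector clones at week 12 and at 0.65 in miR-186 clones at week 12, and at 0.04 and 0.07 at week 29.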

How the data were processed

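RNA of 24 HaCaT libraries was sequenced, and 6 were compared here. RNA came from a mirVana isolation and went into TruSeq Stranded mRNA libraries, run in a single pool on a NextSeq500 with paired ends, per the labels' protocols. The authors deposited FPKM (fragments per kilobase of transcript, scaled to library size). The submitters' processing notes name STAR 2.6.0c, Cuffdiff 2.2.1 and hg38 (GRCh38). Which annotation release, strand setting and further scaling were used is not given in the sources used here, so overlapping and antisense genes cannot be told apart. Depth is unknown, so no counting intervals are given. FPKM summed to 712797 to 905683 per library over the series, and no libraries were identical.

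Of 58381 gene IDs, 58202 had GC content from GENCODE release 29. It is that of the longest annotated transcript, which may not be the one expressed. Genes averaging 0.5 FPKM or more across the 24 libraries were tested on log2(FPKM + 0.5) with limma 3.58.1 (R 4.3.3; trend and robust), fitted to 8 groups, with Benjamini-Hochberg adjustment at 0.05. This scale understates the changes of genes at low levels. The GC correction subtracts a natural spline of 5 df per library, set by genes above 1.5 FPKM. The limma test and the correction were run on simulated data with independent libraries, with and without a linear GC trend. These data may differ from that setting, and the outcome is not reported here. Named genes are the 12 largest rises and falls called without overlap, the 8 of each with the smallest corrected p, all genes called after correction and up to 4 members per list; not all are printed. Readthrough and clone-named genes are not described. GCLC, MALAT1, KRT5 and TP63 were chosen after their values were seen. The members and the 44 gene lists were chosen with earlier results of these data known. Alternatives were other pseudocounts, filters, scalings, splines, a replicate block and leaving out each library.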

Additional observations from a re-analysis of the deposited data

How the results depend on the processing

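Counts of genes higher and lower depended on most settings tried. As deposited, the 93 and 104 calls were 89 and 98 with a pseudocount of 0.1, 111 and 120 with 1, 0 and 0 with no filter on low values, 200 and 304 with a mean of at least 2 FPKM, 158 and 214 with median ratio scaling (all 197 kept), 0 and 0 with only the 2 groups compared, and 7 and 1 with the GC correction. Leaving out 1 library gave 0 to 1 higher and 0 to 1 lower. With the GC correction, the 7 and 1 calls were 2237 and 1898 with no filter, where 3663 of 4135 calls had a mean under 0.5 FPKM, 0 and 0 with only the 2 groups compared, 3 and 0 with a spline of 3 df, 5 and 0 with transcript length added, and 0 to 5 and 0 to 2 without 1 library. Same-numbered iAs and untreated libraries had deviations from their group means that correlated at 0.0715, 0.706 and 0.437 (0.0884, 0.7 and 0.411 with the GC correction). For replicates 2 and 3 the libraries may thus not be independent between the groups. The labels give no link from replicate to clone, so the number was not used as a pairing. Whether it marks a shared clone was not tested. A replicate block gave 1188 and 868 calls as deposited and 0 and 0 with the GC correction. The difference in GC slope was 0.413 to 0.460 under other filters, a pseudocount of 0.1 and median ratio scaling, and 0.339 to 0.463 without 1 library. The difference between vector and miR-186 clones gave 7 genes with no filter and 0 otherwise. The causes were not tested.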

Other observations

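Some further gene lists had no member past the test and others had 1. Of all genes tested, 0.654% rose and 0.731% fell past the test. At unadjusted p under 0.05, 15.6% of all genes were higher and 13.7% lower as deposited, and 6.49% higher and 7.19% lower with the correction. Of 25 AP-1, EGR and early response genes, 0 passed in limma and 0 had an unadjusted p under 0.05 without the GC correction. With it, 0 were higher and 3 lower at unadjusted p under 0.05. Their median was −0.12 as deposited and −0.29 corrected. Without 1 library it ran from −0.16 to 0.25 as deposited and from −0.47 to 0.04 corrected. Of 40 type I interferon genes, 0 passed, with a median of −0.23 as deposited and −0.10 corrected. At unadjusted p under 0.05, 1 was higher and 4 were lower as deposited, and 0 were higher and 0 lower with the correction. Of 49 genes of mitosis and the spindle checkpoint, ANAPC2, a subunit of the anaphase-promoting complex, rose with 15.3, 16 and 18.3 FPKM with iAs against 8.59, 8.94 and 8.37 FPKM without. Its change was 0.90 ± 0.21 as deposited and 0.13 ± 0.16 with the correction, at a GC content of 63.34%. NEIL1, a glycosylase of base excision repair, was the one call among 35 DNA repair genes, with 6.46, 9.88 and 6.97 FPKM with iAs against 2.22, 3.96 and 2.94 FPKM without (1.23 ± 0.27, and 0.57 ± 0.31 corrected). KDM6A, an H3K27 demethylase, fell, with 32.1, 23.7 and 29.0 FPKM with iAs against 46.8, 42.4 and 53.6 FPKM without (−0.75 ± 0.17, and −0.52 ± 0.15 corrected). Of 27 WNT and Notch genes, 0 rose and 1 fell, while 14 were higher and 3 lower at unadjusted p under 0.05. The list has a median GC content of 55.5%. Of all genes at 55 to 60% GC, 37% were higher and 0.398% lower at unadjusted p under 0.05. The median of the list was 0.40 as deposited and 0.14 corrected, with 1 higher and 3 lower at unadjusted p under 0.05 after the correction. The fall was CTNNB1, which encodes beta-catenin, with 65.2, 68.2 and 58.1 FPKM with iAs against 88.8, 97.3 and 89.2 FPKM without (−0.52 ± 0.13, and −0.30 ± 0.10 corrected, limma adjusted p = 0.208).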
